A study of Mus musculus with 4 samples.

Results

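The 32 genes described here are known targets of hypoxia-inducible factor (HIF) that lie outside glycolysis, oxygen sensing, angiogenesis and collagen modification. They were taken as a fixed list of symbols, and all 32 were found among the 32285 genes counted in the files. Embryoid bodies, spheres of differentiating cells that had been grown from R1 mouse embryonic stem cells, an established line, had been dissociated, and the 10x Genomics 3' kit had made 4 libraries of single cells. The hypoxia library of day 8 (7.33 days of normoxia, then 16 h of hypoxia) was set against the normoxia library of day 8, and the hypoxia library of day 10 (8 days of normoxia, then 48 h of hypoxia) against the normoxia library of day 10. All 4 groups come from this 1 line and are labelled with the same tissue and dissociation, and the sources used here give no oxygen level. Each group has 1 library, so no difference below has a replicate check or a test, and a library effect cannot be told apart from the condition. All intervals are at 95% and cover counting error only.

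HIF is a transcription factor whose alpha subunit is marked for destruction by prolyl hydroxylases while oxygen is plentiful. When oxygen is short the subunit persists, pairs with its beta partner and binds short DNA elements with the core letters ACGTG or GCGTG. Beyond sugar metabolism and blood vessel growth, its targets include secreted hormones, pH-regulating enzymes, repressors of transcription and brakes on growth signalling, many of which are also under the control of other stress pathways.

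Sequences just upstream of the start sites are shown for the members with the highest smaller ratio of the 2 hypoxia comparisons, since these were higher at both ages by the widest margin. RefSeq windows (GRCm38.p6) from 250 bases before to 50 bases after the start site were matched for 27 of the 32 members, not for Stc1, Bhlhe40, Zfp395, Klhl24 and Siah2. The Ak4 window is chr4:101419039-101419338 on the plus strand. The Stc2 window is chr11:31370012-31370311 on the minus strand. The Car12 window is chr9:66713436-66713735 on the plus strand. The Jmjd6 window is chr11:116843400-116843699 on the minus strand. The Ccng2 window is chr5:93267323-93267622 on the plus strand. Ak4 has 4 such windows, of which that listed first is shown. The capitals mark ACGTG or GCGTG on either strand, so that CACGT and CACGC are the same letters read on the other strand.
Ak4: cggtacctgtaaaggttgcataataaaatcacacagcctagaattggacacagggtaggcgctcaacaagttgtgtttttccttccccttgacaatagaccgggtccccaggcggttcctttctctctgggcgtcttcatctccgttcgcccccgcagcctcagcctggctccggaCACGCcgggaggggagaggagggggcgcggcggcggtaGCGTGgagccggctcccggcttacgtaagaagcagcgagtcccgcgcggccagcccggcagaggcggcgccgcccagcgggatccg
Stc2: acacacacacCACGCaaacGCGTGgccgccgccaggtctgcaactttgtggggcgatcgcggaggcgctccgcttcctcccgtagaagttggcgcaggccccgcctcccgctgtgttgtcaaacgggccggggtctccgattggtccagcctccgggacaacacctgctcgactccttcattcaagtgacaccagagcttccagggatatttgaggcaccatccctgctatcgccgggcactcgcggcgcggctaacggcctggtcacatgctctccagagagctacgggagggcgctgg
Car12: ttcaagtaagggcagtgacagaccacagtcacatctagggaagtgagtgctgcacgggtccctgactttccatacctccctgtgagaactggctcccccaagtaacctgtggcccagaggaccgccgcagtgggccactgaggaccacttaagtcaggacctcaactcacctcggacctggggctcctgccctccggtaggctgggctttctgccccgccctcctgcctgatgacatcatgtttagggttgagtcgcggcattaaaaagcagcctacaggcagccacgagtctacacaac
Jmjd6: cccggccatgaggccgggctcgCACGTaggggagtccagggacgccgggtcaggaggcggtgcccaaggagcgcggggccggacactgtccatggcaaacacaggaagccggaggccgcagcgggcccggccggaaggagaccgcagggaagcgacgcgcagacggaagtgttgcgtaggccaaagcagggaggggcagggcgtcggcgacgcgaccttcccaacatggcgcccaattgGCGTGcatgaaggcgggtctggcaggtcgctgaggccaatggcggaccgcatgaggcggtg
Ccng2: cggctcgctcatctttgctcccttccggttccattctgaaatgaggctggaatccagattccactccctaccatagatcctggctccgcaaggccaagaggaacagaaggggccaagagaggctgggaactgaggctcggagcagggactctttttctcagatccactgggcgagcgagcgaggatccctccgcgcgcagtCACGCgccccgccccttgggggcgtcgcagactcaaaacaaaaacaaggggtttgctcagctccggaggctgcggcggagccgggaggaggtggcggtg
The Ak4 window held CACGC 74 and GCGTG 36 bases before the start site. In the Stc2 window, the capitals began 240 and 231 bases before it. The Jmjd6 window held CACGT at 228 and GCGTG at 11 bases before the start site, the Ccng2 window CACGC at 49, and the Car12 window held 0 matches. Of the 27 members with a window, 23 held either motif, 85.2%, against 46.7% of the 27025 genes in the promoter table. ACGTG alone, on either strand, was in 15 members, 55.6%, against 21.8% of all genes. A gene with several windows counted when any of them held a match. Ak4 thus counts for ACGTG, although the window shown does not hold it. The members' windows, only that listed first for each gene, also held more CG pairs, a median of 17 against 7 over all genes. These motifs contain a CG pair. The matches describe the letters in these windows and not a measured binding. Since the members were listed as known HIF targets, these shares are no separate support for the list. The background was not limited to expressed genes.

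The libraries held 3489, 3374, 4746 and 2802 barcodes in the order hypoxia and normoxia of day 8, hypoxia and normoxia of day 10, with 78354814, 85379390, 77012257 and 63117306 unique molecular identifiers (UMIs, which count each captured RNA molecule once). After filtering, 3345, 3168, 4616 and 2679 cells were kept, and any pair of libraries shared between 0 and 5 barcodes. The 48 h hypoxia library stood apart in depth, with a median of 12802 UMIs per cell against 18839 to 23057.5 in the others, and in its ribosomal protein genes, which took 29.4% of UMIs against 18.4% to 20.7%. Mitochondrial genes took 2.01% of UMIs after 16 h of hypoxia against 3.82% in normoxia, and 1.11% after 48 h against 4.05%. The part of these shares in the ratios below was not tested. The cells are labelled as mouse embryonic stem cells, but 9 of 10 pluripotency markers were at or below 5.37 CPM (a gene's UMIs after every library is scaled to an equal total) in every library, the exception being Klf4. Only 40 of 13808 cells fell in a pluripotent-like cluster, and 84.5% to 93.6% of cells in each library were mesenchymal-like.

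After 16 h of hypoxia, 22 of the 29 members that averaged 5 CPM or more over the libraries exceeded their normoxic level by 1.5-fold or more, and 0 were lower to that extent. Among all 10600 genes at that level, 4.58% were higher and 10.1% lower. The median log2 ratio of the members (of CPM + 1) was 1.24, against -0.11 over all genes. After 48 h, 21 members were higher and 2 lower, against 10.4% of all genes higher and 44.3% lower, with a median of 1.19 against -0.47. The negative median over all genes at 48 h moves with the scaling: TMM scaling, which centres on the bulk of genes, raised ratios by 0.22 at 16 h and 0.48 at 48 h. With TMM, 24 members were higher and 0 lower at 16 h (9.42% and 4.11% of all genes), and 24 were higher and 1 lower at 48 h (25.5% and 25.3%). Car9, Cxcr4 and Rab20 were below the 5 CPM mean and are outside these counts. Stc1, Stc2 and Car12 passed it only through their hypoxia libraries, so that a gene of their level had to be higher in hypoxia to be counted. With the 5 CPM mean asked of the normoxia libraries alone, a setting chosen after seeing the data, 19 of 26 members were higher and 0 lower at 16 h (4.08% and 10.9% of 10871 genes), and 18 higher and 2 lower at 48 h (9.47% and 46.0%).

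**Figure D1:**
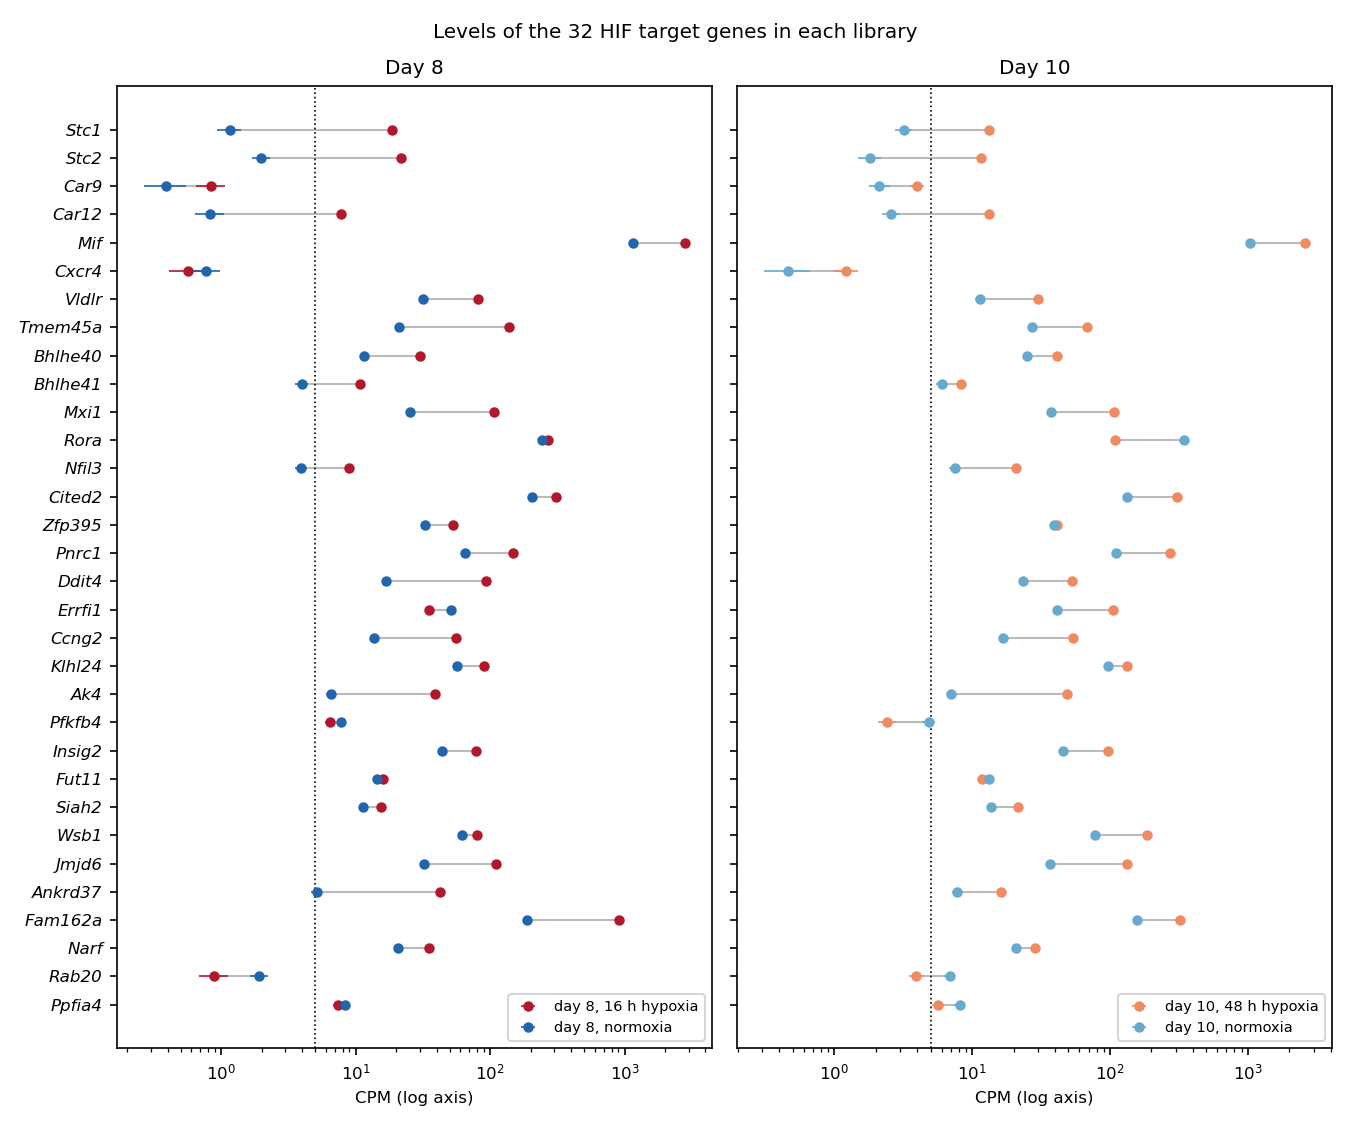
Level of each of the 32 genes in CPM (log axis) in the hypoxia and normoxia libraries of day 8 (left) and day 10 (right), with exact Poisson 95% bars that mostly lie within the points. The dotted line marks 5 CPM. Most genes lie to the right in hypoxia at both ages, while Rora lies far to the left at day 10, at 108 CPM against 345 CPM.

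Members were concentrated at the top of the ranking of ratios. At 16 h, 14 of the 29 were among the 100 highest of 10600 genes, which are 0.943% of all, and 23 among the 1000 highest. At 48 h, 3 were among the 100 highest and 20 among the 1000 highest. Stc1, Stc2, Ankrd37, Tmem45a and Ak4 ranked 4, 6, 9, 11 and 20 at 16 h. Ak4 led the members at 48 h at rank 17, followed by Stc2 at 49 and Car12 at 73. Stc1, Stc2 and Car12 reached the 5 CPM mean only through their hypoxia libraries, so the filter itself favoured high ranks for them. Together the 32 genes made up 5624 CPM after 16 h of hypoxia against 2347 CPM in normoxia, and 4854 CPM after 48 h against 2366 CPM. Without Mif, the gene with the most UMIs, the sums were 2825 against 1187 CPM at 16 h and 2268 against 1331 CPM at 48 h.

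**Figure D2:**
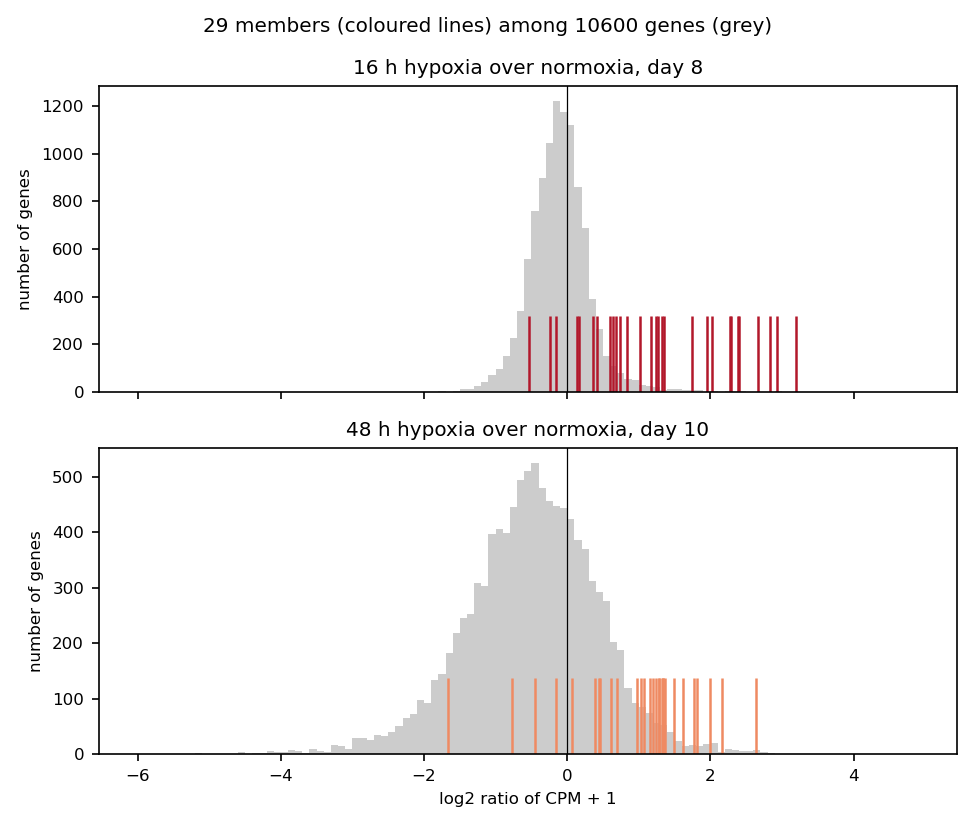
Distribution of log2 ratios of CPM + 1, hypoxia over normoxia, over 10600 genes (grey histogram) with the 29 members as coloured lines, at 16 h (top) and 48 h (bottom). At 16 h most members lie in the upper tail, around a median of 1.24 against -0.11, and at 48 h the whole distribution is wider and centred below 0.

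Of the 8 secreted and surface proteins, Stc1, Stc2, Car12, Mif, Vldlr and Tmem45a were at least 1.5-fold higher in hypoxia at both ages. Of these, Stc1, Stc2 and Car12 reached the 5 CPM mean only through their hypoxia libraries, while Car9 and Cxcr4 did not reach it. Stc1, a secreted glycoprotein hormone (ENSMUSG00000014813, chromosome 14 from 69029238 to 69041804, plus strand, mm10), was at 18.7 CPM (interval 17.7 to 19.7) after 16 h of hypoxia against 1.15 CPM (0.937 to 1.41) in normoxia. At day 10 it was at 13.3 CPM (12.5 to 14.2) after 48 h of hypoxia against 3.18 CPM (2.75 to 3.65). The ratio of its CPM was 16.2-fold (13.2 to 20.1) at 16 h and 4.19-fold (3.60 to 4.91) at 48 h, so the intervals of the 2 folds did not overlap. Its relative Stc2 (chromosome 11 from 31357307 to 31370074, minus strand) was at 21.8 CPM after 16 h against 1.98 CPM, and at 11.5 CPM after 48 h against 1.80 CPM, log2 ratios of 2.94 at 16 h and 2.16 at 48 h. Both stanniocalcin genes were thus close to absent in normoxia and low even in hypoxia.

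Car12, a membrane carbonic anhydrase that helps to set pH outside the cell, was at 7.83 CPM after 16 h of hypoxia against 0.824 CPM, and at 13.3 CPM after 48 h against 2.59 CPM (log2 ratios of 2.27 at 16 h and 1.99 at 48 h, the order kept for the pairs that follow). Car9, the related enzyme best known as a hypoxia marker, stayed low, at 0.845 CPM (66 UMIs) after 16 h against 0.389 CPM (33 UMIs) and at 4.0 CPM (307 UMIs) after 48 h against 2.12 CPM (133 UMIs). The ratio of its CPM was 2.18-fold (1.41 to 3.41) at 16 h and 1.88-fold (1.53 to 2.32) at 48 h. So at these depths Car9 was scarce in every library, although its counting intervals lay above 1 at both ages.

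Mif, a cytokine gene (chromosome 10 from 75859353 to 75860240, minus strand), was at 2799 CPM after 16 h of hypoxia against 1160 CPM, and at 2586 CPM after 48 h against 1035 CPM. Its log2 ratios of 1.27 and 1.32 were nearly equal at the 2 ages. Transcripts of 3 other annotated genes, Gm10169, Gm16379 and Mif-ps3, are at least 95% identical to it over at least 200 bases, and 0 of them are counted in the files, so its count is uncertain to that extent. Vldlr, a lipoprotein receptor, was at 81.7 CPM after 16 h against 31.5 CPM and at 30.1 CPM after 48 h against 11.3 CPM. Its log2 ratios were 1.35 and 1.34, although its levels in both conditions were lower at day 10. Tmem45a, a transmembrane protein of little-known function, was at 138 CPM after 16 h against 21.0 CPM and at 67.7 CPM after 48 h against 27.3 CPM, log2 ratios of 2.66 and 1.28. The chemokine receptor gene Cxcr4 had 44 UMIs after 16 h against 65 and 93 after 48 h against 29, all at or below 1.21 CPM. The ratio of its CPM at 16 h, 0.737-fold, had an interval that spans 1 (0.491 to 1.10). At 48 h the ratio was 2.61-fold (1.71 to 4.11), on these few UMIs.

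Of the 8 transcription factors and cofactors, 7 were higher at 16 h (median log2 ratio 1.09), and 5 were higher and 1 lower at 48 h (median 0.94). Mxi1, which competes with MYC for its partner MAX, was at 106 CPM after 16 h of hypoxia against 25.4 CPM, and at 107 CPM after 48 h against 37.6 CPM (log2 ratios of 2.03 and 1.48). Bhlhe40, a repressor that also acts in the circadian clock, was at 30.4 CPM after 16 h against 11.5 CPM and at 40.9 CPM after 48 h against 24.9 CPM (1.32 and 0.69). Its relative Bhlhe41 was at 10.8 CPM after 16 h against 3.98 CPM and at 8.25 CPM after 48 h against 6.08 CPM (1.24 and 0.39), so that the 48 h ratio did not reach 1.5-fold over all cells with total UMI scaling, but did with TMM (0.83) and within mesenchymal-like cells (0.64). Nfil3, a leucine zipper repressor, and Pnrc1, a nuclear receptor coactivator, were higher at both ages. Their log2 ratios were 1.01 and 1.37 for Nfil3 and 1.17 and 1.28 for Pnrc1.

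Cited2, which competes with HIF for a shared coactivator, was at 310 CPM after 16 h of hypoxia against 205 CPM, and at 307 CPM after 48 h against 134 CPM. Its hypoxic levels were thus alike at the 2 ages, while its normoxic level was lower at day 10, and its log2 ratios were 0.59, just past 1.5-fold (0.52 within mesenchymal-like cells), and 1.19. Zfp395, a zinc finger factor, was at 52.6 CPM after 16 h against 32.6 CPM (log2 ratio 0.68) and at 40.9 CPM after 48 h against 39.1 CPM (0.07). Rora, a nuclear receptor that activates clock genes (chromosome 9 from 68653786 to 69388246, plus strand), was the member farthest below 0. It was at 271 CPM after 16 h against 242 CPM, a log2 ratio of 0.17, and at 108 CPM after 48 h against 345 CPM, a ratio of -1.66 (-1.16 with TMM). The counting interval of its CPM ratio at 48 h ran from 0.306 to 0.322. Whether its ratio differed between the 2 ages was not tested, since no library has a replicate.

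Of the 4 growth and signalling brakes, 3 were higher at 16 h and 3 at 48 h, but not the same 3. Ddit4, an inhibitor of the growth kinase complex mTORC1 (chromosome 10 from 59949669 to 59951834, minus strand), was at 93.2 CPM after 16 h of hypoxia against 16.9 CPM, and at 53.2 CPM after 48 h against 23.2 CPM (log2 ratios of 2.39 and 1.16). Ccng2, an unusual cyclin that holds back the cell cycle, was at 55.7 CPM after 16 h against 13.6 CPM and at 53.7 CPM after 48 h against 16.8 CPM (1.95 and 1.62). Klhl24, an adaptor of a ubiquitin ligase, was at 89.5 CPM after 16 h against 57.0 CPM and at 133 CPM after 48 h against 96.7 CPM. Its log2 ratios were 0.64 and 0.46, and the 48 h ratio did not reach 1.5-fold with total UMI scaling but did with TMM (0.95). Errfi1, an inhibitor of the EGF receptor (chromosome 4 from 150853919 to 150868892, plus strand), had opposite signs at the 2 ages. It was at 35.0 CPM after 16 h against 51.1 CPM, a log2 ratio of -0.53 that did not reach 1.5-fold (-0.31 with TMM). At 48 h it was at 106 CPM against 41.3 CPM, a log2 ratio of 1.34. That difference between the ages was not tested.

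**Figure D3:**
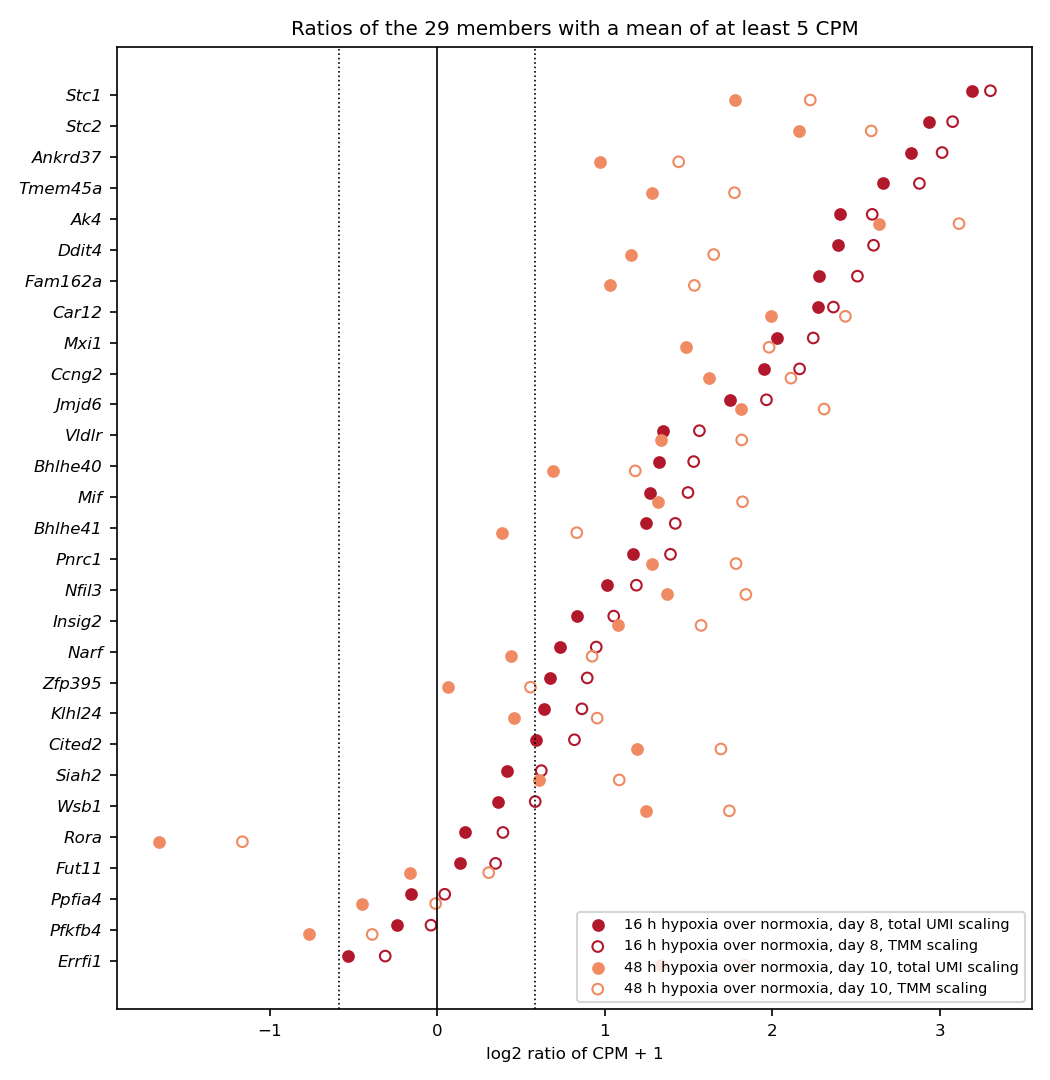
Log2 ratio of CPM + 1, hypoxia over normoxia, for the 29 members that average 5 CPM or more, sorted by the 16 h ratio, with total UMI scaling (filled) and TMM scaling (open). Dotted lines mark 1.5-fold. The filled 48 h points spread from -1.66 for Rora to 2.63 for Ak4. Errfi1, Wsb1 and Cited2 lie farther right at 48 h than at 16 h with both scalings.

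Among the 4 metabolic enzymes and membrane proteins, Ak4 and Insig2 were higher at both ages. Ak4, an adenylate kinase of the mitochondrial matrix (chromosome 4 from 101419277 to 101466995, plus strand), was at 38.9 CPM after 16 h of hypoxia against 6.53 CPM, and at 49.1 CPM after 48 h against 7.08 CPM. The ratio of its CPM was 5.95-fold (5.43 to 6.52) at 16 h and 6.95-fold (6.29 to 7.68) at 48 h, the highest 48 h ratio of any member. A near-identical copy, Ak3l2-ps, is likewise not among the counted genes. Insig2, which holds the sterol-sensing machinery in the endoplasmic reticulum, was at 78.3 CPM after 16 h against 43.5 CPM and at 96.7 CPM after 48 h against 45.3 CPM (log2 ratios of 0.83 and 1.08). Fut11, a fucosyltransferase, was at 15.9 CPM after 16 h against 14.4 CPM (0.14) and at 11.8 CPM after 48 h against 13.3 CPM, with a sign that depends on the scaling at 48 h (-0.16 with total UMIs and 0.31 with TMM). Pfkfb4, which sets the level of an activator of phosphofructokinase, was at 6.48 CPM after 16 h against 7.82 CPM (-0.24) and at 2.42 CPM after 48 h against 4.82 CPM. The 48 h log2 ratio of -0.77 was past 1.5-fold and with TMM was not (-0.39).

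The ubiquitin ligase components and the oxygenase had 1 of 3 members higher at 16 h and all 3 at 48 h, with median log2 ratios of 0.41 and 1.24. Jmjd6, an oxygenase that itself uses molecular oxygen (chromosome 11 from 116837432 to 116843449, minus strand), was at 110 CPM after 16 h of hypoxia against 32.1 CPM, and at 132 CPM after 48 h against 36.8 CPM. Its log2 ratios of 1.75 and 1.81 were nearly equal; a gene on the same strand, Gm27401, overlaps it. Wsb1, a substrate adaptor of a ubiquitin ligase, was at 80.3 CPM after 16 h against 62.2 CPM (0.36) and at 185 CPM after 48 h against 77.5 CPM (1.24). Siah2, a ubiquitin ligase that acts on the HIF prolyl hydroxylases, was at 15.3 CPM after 16 h against 11.3 CPM (0.41) and at 21.5 CPM after 48 h against 13.8 CPM (0.61). With TMM, Siah2 and Wsb1 also passed 1.5-fold at 16 h, at 0.62 and 0.59.

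The less studied members split by gene. Fam162a, a mitochondrial protein linked to cell death under hypoxia, was at 912 CPM after 16 h of hypoxia against 187 CPM, and at 324 CPM after 48 h against 158 CPM (log2 ratios of 2.28 and 1.03). Ankrd37, an ankyrin repeat protein, was at 42.5 CPM after 16 h against 5.12 CPM and at 16.3 CPM after 48 h against 7.83 CPM (2.83 and 0.97). For both genes the hypoxic level was lower at 48 h than at 16 h, while the normoxic levels of the 2 ages lay within 1.53-fold of each other. Narf, which binds prelamin A, was at 35.1 CPM after 16 h against 20.7 CPM (0.73) and at 28.6 CPM after 48 h against 20.8 CPM (0.44). Ppfia4, a liprin of synaptic and adhesion sites, was at 7.37 CPM after 16 h against 8.32 CPM (-0.16; 0.05 with TMM) and at 5.67 CPM after 48 h against 8.10 CPM (-0.45; -0.01 with TMM). Rab20, a small GTPase of vesicle traffic, had 69 UMIs after 16 h against 162 and 301 after 48 h against 429, at or below 6.85 CPM in every library. The ratio of its CPM was 0.463-fold (0.344 to 0.618) at 16 h and 0.572-fold (0.492 to 0.664) at 48 h, and Gm20100 overlaps it on the same strand.

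Of the 29 members, 18 were at least 1.5-fold higher in both hypoxia comparisons, against 2.13% of all genes. They were Stc1, Stc2, Car12, Mif, Vldlr and Tmem45a among the secreted and surface proteins, Bhlhe40, Mxi1, Nfil3, Cited2 and Pnrc1 among the transcription factors and cofactors, and Ddit4, Ccng2, Ak4, Insig2, Jmjd6, Ankrd37 and Fam162a. Of them, Stc1, Stc2 and Car12 reached the 5 CPM mean only through their hypoxia libraries. No member was higher at 16 h and lower at 48 h, a pattern seen in 0.679% of genes. The log2 ratio was higher at 48 h than at 16 h for 10 of the 29, against 32% of all genes. That count was 13 with TMM and 17 when ratios were centred on the median of all genes, so the order of the 2 ages for the list as a whole turns on the scaling. The 2 comparisons differ in both the length of hypoxia and the age of the embryoid bodies, which cannot be told apart here.

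Age was compared in normoxia alone. There, 6 of 29 were higher at day 10 than at day 8 and 3 were lower, against 7.93% and 8.11% of all genes. With TMM the split was 10 higher and 1 lower (10.7% and 5.27%). Bhlhe40 was at 24.9 CPM at day 10 against 11.5 CPM at day 8, a log2 ratio of 1.05, and Car12 (0.98) and Stc1 (0.96) followed it. Vldlr was the lowest, at 11.3 CPM at day 10 against 31.5 CPM at day 8 (-1.40). Cited2 (-0.61) and Pfkfb4 (-0.60) were the others past 1.5-fold, and neither was with TMM. Within mesenchymal-like cells 9 of 31 members were higher with age and 2 lower (8.66% and 10.5% of genes), and within endoderm-like cells 9 of 21 were higher and 0 lower (9.47% and 13.3%). Macrophage-like cells had 15 of 24 higher and 2 lower, against 18.6% and 21.2% of genes.

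Other known targets of HIF and lists of other pathways were set beside the members. Over all genes, 4.58% were higher and 10.1% lower at 16 h, and 10.4% higher and 44.3% lower at 48 h. Of 41 measured genes of glycolysis, oxygen sensing, angiogenesis, collagen modification and mitophagy, 37 were higher and 0 lower at 16 h (median log2 ratio 1.71), and 30 higher and 2 lower at 48 h (median 1.11). Egln3, a HIF prolyl hydroxylase gene, led both, with ratios of 2.94 and 2.39. Several members are also targets of ATF4, the effector of the integrated stress response. Of the 13 measured ATF4 targets that are not members, 4 were higher and 0 lower at 16 h (median 0.08), and 10 were higher and 1 lower at 48 h (median 1.17). Nupr1, a stress-induced chromatin protein gene in that list, was at 42.1 CPM after 16 h against 24.3 CPM and at 368 CPM after 48 h against 59.4 CPM (0.77 and 2.61). Trib3, a pseudokinase gene induced by ATF4, had log2 ratios of 0.80 and 2.48. Of 9 measured clock genes that are not members, 1 was higher and 1 lower at 16 h, and 3 higher and 2 lower at 48 h. Of 10 genes responsive to glucocorticoids or FoxO, 0 were higher and 1 lower at 16 h, and 3 higher and 2 lower at 48 h. The part of these pathways in the members' ratios was not tested.

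The levels of cell type markers also moved with hypoxia, most of all at day 10. Smooth muscle markers summed to 7653 CPM after 48 h of hypoxia against 1858 CPM, with 6 of 8 measured markers higher and 2 lower. Macrophage markers summed to 104 CPM against 584 CPM (0 of 12 higher, 12 lower), erythroid markers to 37.3 against 570 CPM (0 of 9 higher, 8 lower), and mesenchymal markers to 5194 against 10911 CPM (0 of 14 higher, 9 lower). Over all genes, 10.4% were higher and 44.3% lower at 48 h. With TMM, the median log2 ratios were 2.13 for smooth muscle, -1.83 for macrophage, -2.46 for erythroid and -0.19 for mesenchymal markers. Mesenchymal-like cells made up 93.6% of cells after 48 h against 89.2% in normoxia. At 16 h the smooth muscle markers summed to 5958 against 4237 CPM (1 of 8 higher), the macrophage markers to 48.6 against 93.0 CPM (6 of 12 lower) and the erythroid markers to 4617 against 4594 CPM (1 of 9 lower). Over all genes, 4.58% were higher and 10.1% lower at 16 h. No marker of these lists was at 0 in any library. Ratios were therefore also taken within cell classes named from marker genes.

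In mesenchymal-like cells, 21 of 32 members were higher and 0 lower at 16 h (median log2 ratio 1.14), against 4.36% and 12.5% of genes in that class. At 48 h, 24 were higher and 2 lower (median 1.19), against 10.6% and 42.3%. These counts take members with at least 50 UMIs over both libraries, also those under the 5 CPM mean. At 48 h Cxcr4, with 3 UMIs in normoxia, reached the 50 UMIs only through hypoxia, so it had to be higher to be counted. The class holds 84.5% to 93.6% of the cells of each library. Its ratios thus had to lie close to those of all cells and are no separate check on makeup. At day 10, moreover, different clusters hold most of the class: clusters 0, 2, 6, 9 and 12 in hypoxia, led by genes such as Actg2, Tagln, Gas1 and Cemip, and clusters 7, 8 and 11 in normoxia, led by Dcn, Kcnab1, Lum and Ptn. In the mesenchymal-like cells Cxcr4 was at 1.06 CPM after 48 h against 0.0531 CPM (3 UMIs), with a counting interval for the ratio of 6.59 to 99.0. Rora was at 108 CPM in these cells after 48 h against 377 CPM, a log2 ratio of -1.79.

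At day 8, 5 mesenchymal-like clusters (1, 3, 4, 10 and 14) held at least 50 cells of both libraries, which allowed ratios within a cluster. Cluster 5 was mostly of the hypoxia library (886 against 30 cells) and cluster 16 mostly of the normoxia library (31 against 322 cells). In cluster 1, 20 of 29 members were higher and 1 lower, against 5.63% and 19.6% of genes. In cluster 3, 19 of 29 were higher and 0 lower (4.59% and 9.42% of genes), and in cluster 4, 22 of 29 were higher and 2 lower (6.46% and 13.5%). In cluster 10, 22 of 28 were higher and 0 lower (7.44% and 17.2%), and in cluster 14, 20 of 25 were higher and 0 lower (10.7% and 22.9%). The medians of the 5 clusters lay between 0.88 and 1.55. Of the 25 members measured in all 5 clusters, 16 were at least 1.5-fold higher in every one. The share of all genes that were so was not computed, so this count has no background. Stc1 and Stc2, at or below 2.87 CPM in these clusters in normoxia, reached the 50 UMIs mainly through hypoxia. Stc1 had log2 ratios of 2.68 to 3.32 over the 5 clusters, Ankrd37 of 2.21 to 3.89, Ak4 of 2.16 to 3.90 and Ddit4 of 0.88 to 3.26. Cluster 3, led by the contractile genes Actg2, Acta2 and Tagln, had the lowest median, and there Ddit4 was at 33.4 CPM in hypoxia against 17.7 CPM in normoxia. In cluster 14, led by Hsd11b2, Tdo2 and Lum, Ddit4 was at 161 against 21.2 CPM. Rora was higher by 1.5-fold in 3 of these clusters, up to 706 against 357 CPM in cluster 14, and was within 1.5-fold in the other two. At day 10 a single mesenchymal-like cluster, cluster 9, held 50 cells of both libraries (447 and 82). There 17 of 22 members were higher and 0 lower (median 1.21), against 33.5% and 23.2% of genes, and Rora was at 74.5 against 62.4 CPM, a log2 ratio of 0.25. The normoxic cells of that cluster were few and shallow, with a median of 2685 UMIs against 9737 in hypoxia. Genes thus reached the 50 UMIs there mainly through the hypoxia library, which leans these counts towards higher. Ak4, Ankrd37 and Nfil3 were each at 4.16 CPM in its normoxic cells and rest on very few UMIs.

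**Figure D4:**
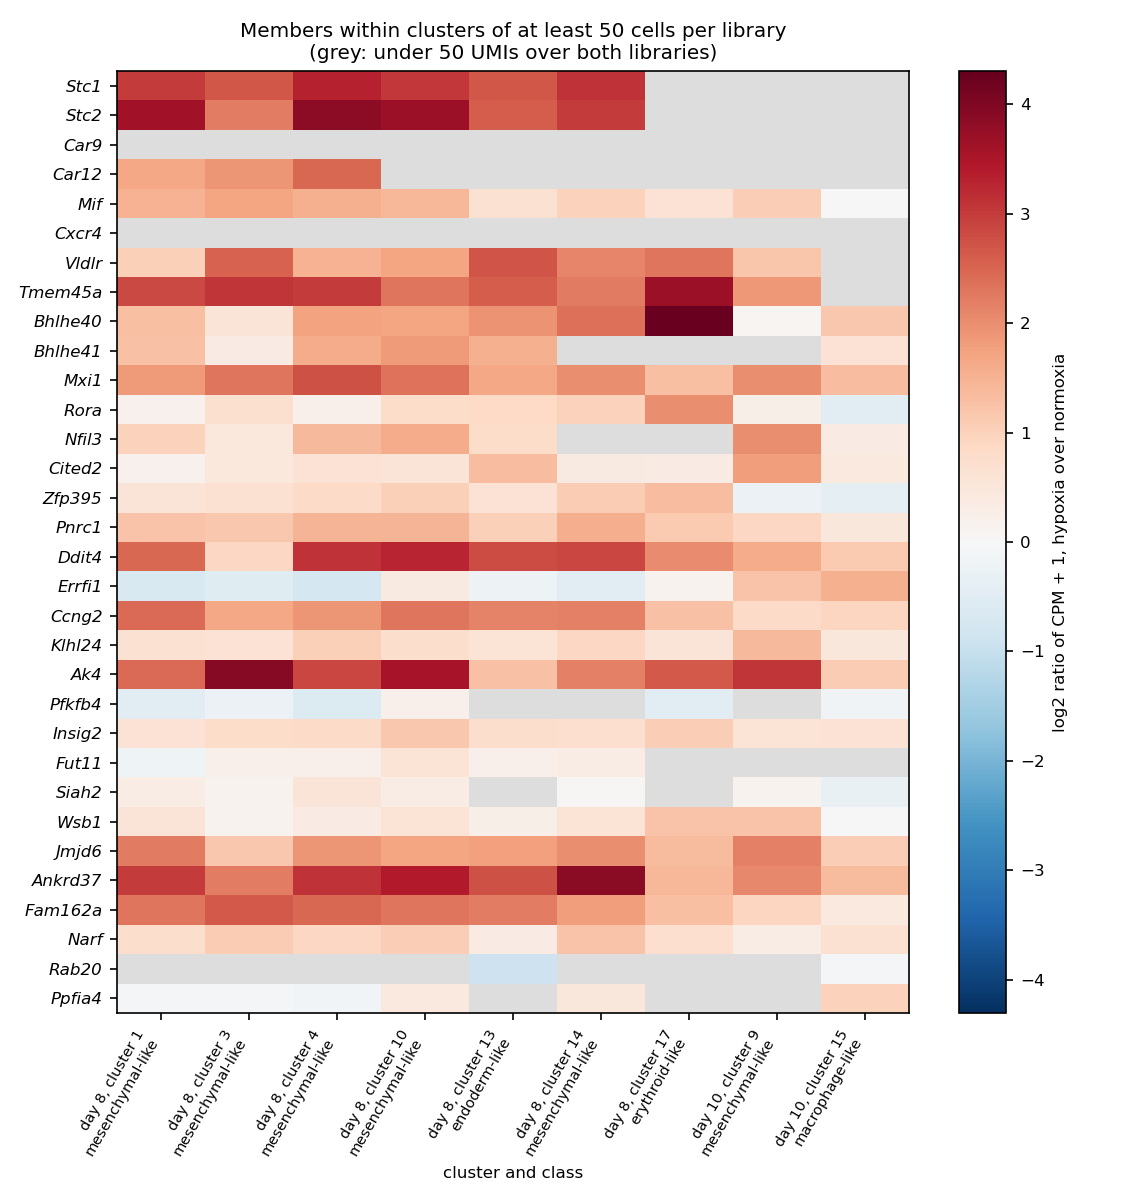
Log2 ratio of CPM + 1, hypoxia over normoxia, of each member within each cluster that held at least 50 cells of both libraries, coloured from blue (lower) through white to red (higher), with grey for under 50 UMIs over both. Stc1, Stc2, Ak4, Ankrd37 and Fam162a are red in nearly all day 8 clusters that measure them, and the macrophage-like cluster of day 10 is paler, with a median of 0.55.

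Smaller classes gave the same direction for most members, with fewer of them measured. In endoderm-like cells at 16 h (179 in hypoxia and 227 in normoxia), 20 of 26 members were higher and 1 lower (median 1.29), against 7.95% and 11.9% of genes. Ddit4 was at 153 CPM there against 20.1 CPM, Vldlr at 50.7 against 7.02 CPM, and Rab20, the lower member, at 5.01 against 10.1 CPM. In erythroid-like cells (152 and 109), 17 of 21 were higher and 0 lower (median 1.28), against 16.2% and 23.0% of genes. Both counts ask for a minimum of UMIs over both libraries, so a member scarce in normoxia had to be higher to be counted. This held for Stc1 in endoderm-like cells, with 53 UMIs in hypoxia against 6 in normoxia. It also held for Tmem45a (90 against 4 UMIs) and Bhlhe40 (65 against 1) in erythroid-like cells. Bhlhe40 was at 27.5 CPM in erythroid-like cells in hypoxia against 0.508 CPM in normoxia, which rests on 1 UMI in normoxia. The counting interval of this ratio was 9.39 to 2173. Rora was at 146 against 36.0 CPM in erythroid-like cells, a log2 ratio of 1.98. Pfkfb4 was at 68.6 against 97.0 CPM there, the class in which its CPM was highest.

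In macrophage-like cells at 48 h (118 in hypoxia and 190 in normoxia), 12 of 24 members were higher and 0 lower. Their median log2 ratio was 0.55 against -0.28 over all genes. Of all genes measured in them, 10.3% were higher and 31.6% lower. Errfi1 was at 61.9 CPM there against 20.8 CPM (1.53), Ankrd37 at 88.2 against 33.6 CPM (1.37) and Mxi1 at 97.4 against 38.4 CPM (1.32). Mif was at 1110 against 1106 CPM, with an interval of 0.949 to 1.06 for the ratio, while in mesenchymal-like cells it was at 2621 against 1009 CPM. Rab20 was at 48.0 against 50.01 CPM in these cells, and at 2.94 against 3.47 CPM in mesenchymal-like cells. Whether ratios differed between the classes was not tested.

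Members also varied among mesenchymal-like clusters of 1 library. In the 16 h hypoxia library the CPM of Rora ranged 9.33-fold over 6 clusters, the lowest being 75.7 CPM in cluster 3 and the highest 706 CPM in cluster 14. Ankrd37 ranged 5.43-fold and Stc1 4.12-fold over the same clusters, whereas Jmjd6 ranged 1.34-fold and Fam162a 1.37-fold. In the 48 h hypoxia library Car12 ranged 7.94-fold over 5 clusters, up to 34.9 CPM in cluster 12, and Wsb1 4.25-fold, up to 397 CPM in cluster 2. Insig2 ranged 1.13-fold there. The members thus include genes whose level in hypoxia was nearly even over clusters and others whose level depended on the cluster. Such spread was not particular to hypoxia. Over 6 clusters of the day 8 normoxia library, Rora ranged 10.2-fold, Stc1 4.42-fold (at or below 1.77 CPM) and Ankrd37 2.43-fold. Fam162a ranged 2.45-fold and Jmjd6 1.75-fold over the same clusters.

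Per cell, more of the members were detected in hypoxia. With each cell thinned to 5000 UMIs, a cell held UMIs of a median of 8 of the 32 genes after 16 h of hypoxia against 5 in normoxia, and of 8 after 48 h against 5. The 10th to 90th percentiles were 5 to 12 against 3 to 8 at 16 h, and 5 to 11 against 3 to 8 at 48 h. Thinning left out 166 hypoxic and 70 normoxic cells of day 8, and 619 hypoxic and 162 normoxic cells of day 10, as shallower. Without thinning the medians were 16 against 11 at 16 h and 13 against 11 at 48 h. Fam162a was detected in 96.3% of cells after 16 h (95.6% to 96.9%) against 55.1% (53.3% to 56.8%), and in 71.2% after 48 h (69.7% to 72.6%) against 47.6% (45.6% to 49.5%). Ak4 was detected in 17.3% of cells after 16 h against 3.39%, and in 21.5% after 48 h against 3.50%. Stc1 was detected in 8.90% of cells after 16 h against 0.807%, and in 5.65% after 48 h against 1.51%. As a gauge of free RNA, the globin gene Hba-x was detected in 7.65% of mesenchymal-like cells after 16 h against 9.64% in normoxia, and in 0.604% after 48 h against 0.395%, where the mesenchymal-like cells with at least 5000 UMIs had median depths of 19320.5, 23304.5, 14384 and 21221 UMIs before thinning, in the same order. Its share was thus no higher in hypoxia at day 8.

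**Figure D5:**
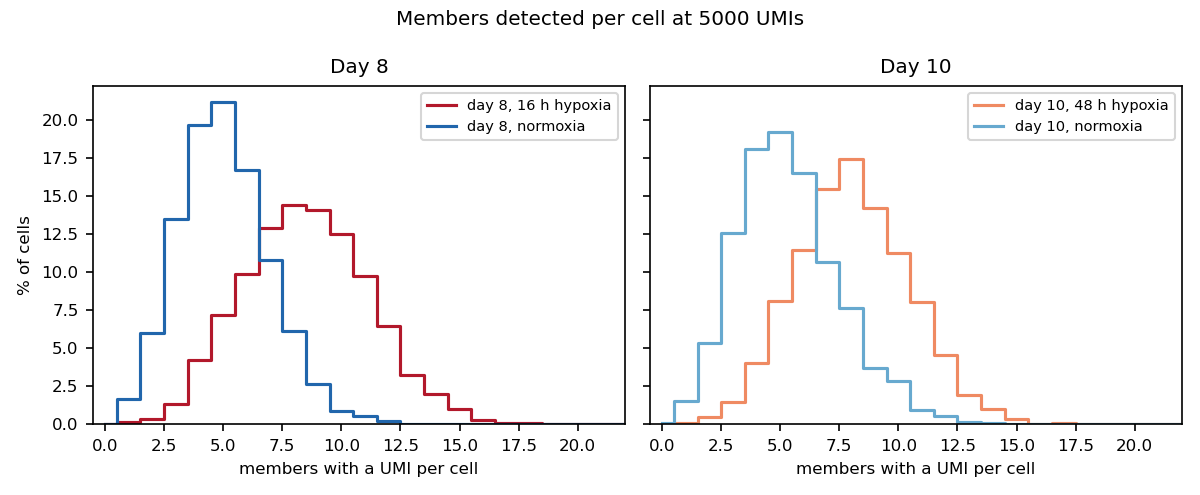
Share of cells (%) by the number of the 32 genes with a UMI, each cell thinned to 5000 UMIs, in hypoxia and normoxia of day 8 (left) and day 10 (right). The hypoxia curves lie to the right at both ages, with medians of 8 against 5.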

How the data were processed

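RNA of single cells was measured in 4 libraries of dissociated embryoid bodies, 1 per group. The authors deposited UMI counts for every gene in every cell, whole numbers that were not normalized. Per the submitters' processing notes, Cell Ranger 7.1.0 and the build mm10 were used; the treatment of intronic reads is not stated there. Of 32285 gene IDs, 32158 matched GENCODE M21, the source of gene coordinates (mm10, 1-based).

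A barcode was kept as a cell when it had 500 or more genes and no more than 15% of its UMIs came from the mitochondrial genome. Counts were summed over cells per library or class, scaled to CPM by the total, and compared as log2 ratios of CPM + 1, past 1.5-fold being called. Members and all genes needed to average 5 CPM or more over the libraries; within classes and clusters, at least 50 cells in both libraries and 50 UMIs over both. Intervals are exact Poisson for levels, exact conditional binomial for plain ratios of CPM and Clopper-Pearson for shares. The interval of a ratio leaves out the pseudocount, so the log2 ratio of a low gene understates the plain ratio. No p-value was computed. Depths of 62614780 to 84938732 UMIs per library in the kept cells set the intervals over all cells. The intervals leave out differences between cultures.

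Cells of all libraries were clustered together (scanpy 1.11.5, leidenalg 0.10.2) on 2000 variable genes, leaving out the members, other HIF targets, cell cycle, mitochondrial and ribosomal protein genes, with 30 principal components, 15 neighbours and resolution 1. The 23 clusters were named from marker lists; the naming rule, and the merging of mesenchymal, smooth muscle and epicardial clusters as mesenchymal-like, were chosen after seeing the data. Scrublet called 1, 5, 1 and 9 cells (hypoxia and normoxia of day 8, then of day 10), too few to have worked, so no cell was removed as a doublet; an alternative removed the 93, 86, 175 and 60 cells of highest score. TMM factors came from edgeR 4.0.16 on the summed counts. Ratios were tested on simulated data. The members, roles and pathway lists were chosen with earlier results of these data known. All members were described whatever their values; of other genes, the 4 most changed of each pathway list, in either direction, could be named. Near-identical transcripts were found with BLAST 2.17.0. Other software was R 4.3.3, Python 3.11.15, pandas 2.3.3, scipy 1.17.1 and numpy 2.4.6.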

Additional observations from a re-analysis of the deposited data

How the results depend on the processing

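No paired analysis was possible because each group has 1 library. Over 13 alternatives, none turned the sign of a median. A 2-fold threshold, a mean of at least 20 CPM and no filter on low genes leave single ratios as they are. Under the other alternatives there were 960 values of single members. Of these, 304 moved by more than the distance, in log2, from the middle of their counting interval to its end. Of those past 1.5-fold, 0 changed sign. With TMM scaling the median log2 ratio at 48 h was 1.69, with centring on the median of all genes 1.66, and in mesenchymal-like cells with TMM 1.68. The number of members lower at 16 h was 1 without a filter on low genes and when each cell weighed the same. At 48 h it was 1 with TMM, centring, a pseudocount of 10 CPM, a mean of at least 20 CPM, mesenchymal-like cells only (where Pfkfb4 averages under 5 CPM and is not counted), or a 2-fold threshold, which leaves Rora. With age, 10 members were higher with TMM or centring, 3 with a pseudocount of 10 CPM or a mean of at least 20 CPM, and 1 at 2-fold. With age, 1 was lower with TMM, centring, the total without mitochondrial and ribosomal protein genes, a pseudocount of 10 CPM, the same class shares in every library, or 2-fold. Centring gave 17 members with a higher ratio at 48 h than at 16 h. Without thinning, a cell held a median of 16 and 13 members in hypoxia at 16 h and 48 h, and 11 in both normoxia libraries. Ratios within single clusters and the 5 CPM mean over the normoxia libraries were added after seeing the data.

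The cause of these changes was not tested, beyond what a stricter or looser threshold does by construction. Members under 5 CPM, and classes under 50 cells, are limited by depth: Car9, Cxcr4 and Rab20 in all cells, and endothelial-like, megakaryocyte-like and cardiomyocyte-like cells as a whole.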
